A study of Mus musculus with 2 samples.

Results

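Interferon-stimulated genes are the transcripts that a cell induces when an interferon binds its receptor. A list of 40 of them was followed in the thymic stroma of E2F_M11 mice, and 38 of the 40 were matched by gene symbol among the 32285 features. Mx1 and Mx2 were not matched and are not analysed here. E2F_M11 mice lack 2 E2F sites in the proximal promoter of Foxn1, removed by CRISPR-Cas9; Foxn1 encodes the factor without which thymic epithelium does not differentiate. Their digested thymi were passed over CD45 microbeads, and the total stroma left after this depletion was sequenced as 2 droplet single-cell libraries. Both libraries carry the deletion, the labels give no age and do not say whether they came from separate animals, and wild-type cells were not analysed here. All comparisons therefore set cell classes of the same thymic preparations against each other, and p-values measure only the spread between these libraries, which may be technical.

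Type I interferons bind the receptor chains Ifnar1 and Ifnar2, and type III interferons bind Ifnlr1 with Il10rb. Both activate a complex that contains Stat2 and Irf9 and binds the interferon-stimulated response element (ISRE), whereas interferon gamma acts through Ifngr1 and Ifngr2 and the gamma-activated site (GAS). In the thymus, medullary epithelial cells (mTEC) are known to make interferons without infection, and the products of the induced genes sense nucleic acids, block viral entry and replication, and modify proteins.

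Cells were assigned to 13 classes by marker genes, none of which is a member of the list. Library 1 held 5110 barcodes with 41075328 UMIs (counted molecules), and library 2 held 19163 barcodes with 42583831 UMIs. After filtering, 3588 cells with a median of 8727 UMIs remained in library 1 and 8186 cells with a median of 1874 UMIs in library 2. The libraries shared 30 cell barcodes. Thymocytes and B-like cells, which bear CD45, were present in both libraries although the labels call the preparation CD45-negative. The classes took up 2727 and 3688 cells. Medullary epithelium was divided into Aire-positive mTEC (188 and 121 cells in libraries 1 and 2), which express tissue antigens, and Ccl21a-high mTEC (367 and 236 cells), which attract thymocytes to the medulla. Cortical epithelium (cTEC) had 71 and 102 cells, tuft-like mTEC 56 and 84, keratinocyte-like mTEC 35 and 124, microfold-like mTEC 23 and 18, and dividing epithelium 28 and 23. There were 1761 and 1454 fibroblasts, 84 and 63 endothelial cells, 5 and 23 B-like cells, 93 and 624 Rag1-positive thymocytes, 9 and 735 dividing thymocytes, and 7 and 81 mature thymocytes. Wherever a pair of values is given for a class, the value of library 1 precedes that of library 2. Levels are UMIs per 1000000 UMIs summed over the class (CPM), and as the chemistry tags the 3' end, they were not divided by transcript length.

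The promoters of members on which the results turn are shown because the ISRE is the element that most of them are known to share. Of the members, 30 had a promoter window in RefSeq (build GRCm38.p6), from 250 bases before to 50 bases after the transcription start. Ifi27, Usp18, Oas2, Dhx58, Parp9, Parp14, Rtp4 and Zbp1 are named only. The ISRE letters GAAA, any 2 bases (NN) and GAAA again, searched on both strands, were found in 18 of the 30 windows (60.0%), against 3.99% of 27025 genes. The GAS letters TTC, any 3 bases (NNN) and GAA, which read the same on both strands, were in 9 of the 30, against 9.55% of genes. Both motifs occurred in 6 members, and they overlapped in Ifitm3 and Bst2. Below are the 200 bases before the start of Isg15 (chr4:156200819-156201018, minus strand), Ifit3 (chr19:34583329-34583528, plus strand), Ifit3b (chr19:34607757-34607956, plus strand), Bst2 (chr8:71537473-71537672, minus strand) and Ubd (chr17:37193692-37193891, plus strand). They are written 5′ to 3′ in the direction of the gene, with matches to the ISRE letters in capitals.
Isg15: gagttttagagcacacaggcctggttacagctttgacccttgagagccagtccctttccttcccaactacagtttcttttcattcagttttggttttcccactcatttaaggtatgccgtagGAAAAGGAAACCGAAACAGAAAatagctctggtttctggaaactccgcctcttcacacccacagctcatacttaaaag
Ifit3: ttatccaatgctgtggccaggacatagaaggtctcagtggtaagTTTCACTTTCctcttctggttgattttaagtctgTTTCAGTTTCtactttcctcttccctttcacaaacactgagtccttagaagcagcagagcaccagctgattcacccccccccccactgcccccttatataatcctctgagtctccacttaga
Ifit3b: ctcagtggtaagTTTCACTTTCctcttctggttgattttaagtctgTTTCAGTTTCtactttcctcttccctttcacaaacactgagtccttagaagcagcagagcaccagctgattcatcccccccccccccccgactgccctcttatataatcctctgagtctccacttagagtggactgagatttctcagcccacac
Bst2: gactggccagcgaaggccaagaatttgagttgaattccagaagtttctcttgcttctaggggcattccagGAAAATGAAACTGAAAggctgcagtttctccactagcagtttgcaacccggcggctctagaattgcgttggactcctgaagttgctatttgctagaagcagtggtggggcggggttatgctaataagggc
Ubd: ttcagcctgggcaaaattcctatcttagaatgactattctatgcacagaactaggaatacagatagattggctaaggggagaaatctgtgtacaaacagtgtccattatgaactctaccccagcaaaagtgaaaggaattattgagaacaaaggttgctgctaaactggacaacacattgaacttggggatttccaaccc
The Isg15 promoter holds 3 overlapping matches, which start at -78, -72 and -66 from the transcription start, and the Bst2 promoter 2 overlapping matches, at -130 and -124. Ifit3 has matches at -156 and -122, and Ifit3b at -188 and -154. Over 168 aligned bases the Ifit3 and Ifit3b promoters were identical at 166 (98.8%), and as these genes are near-identical copies, how their reads were divided is uncertain. The window of Ubd holds no match to either motif, and neither does that of Epsti1. A match is only a run of letters.

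**Figure D1:**
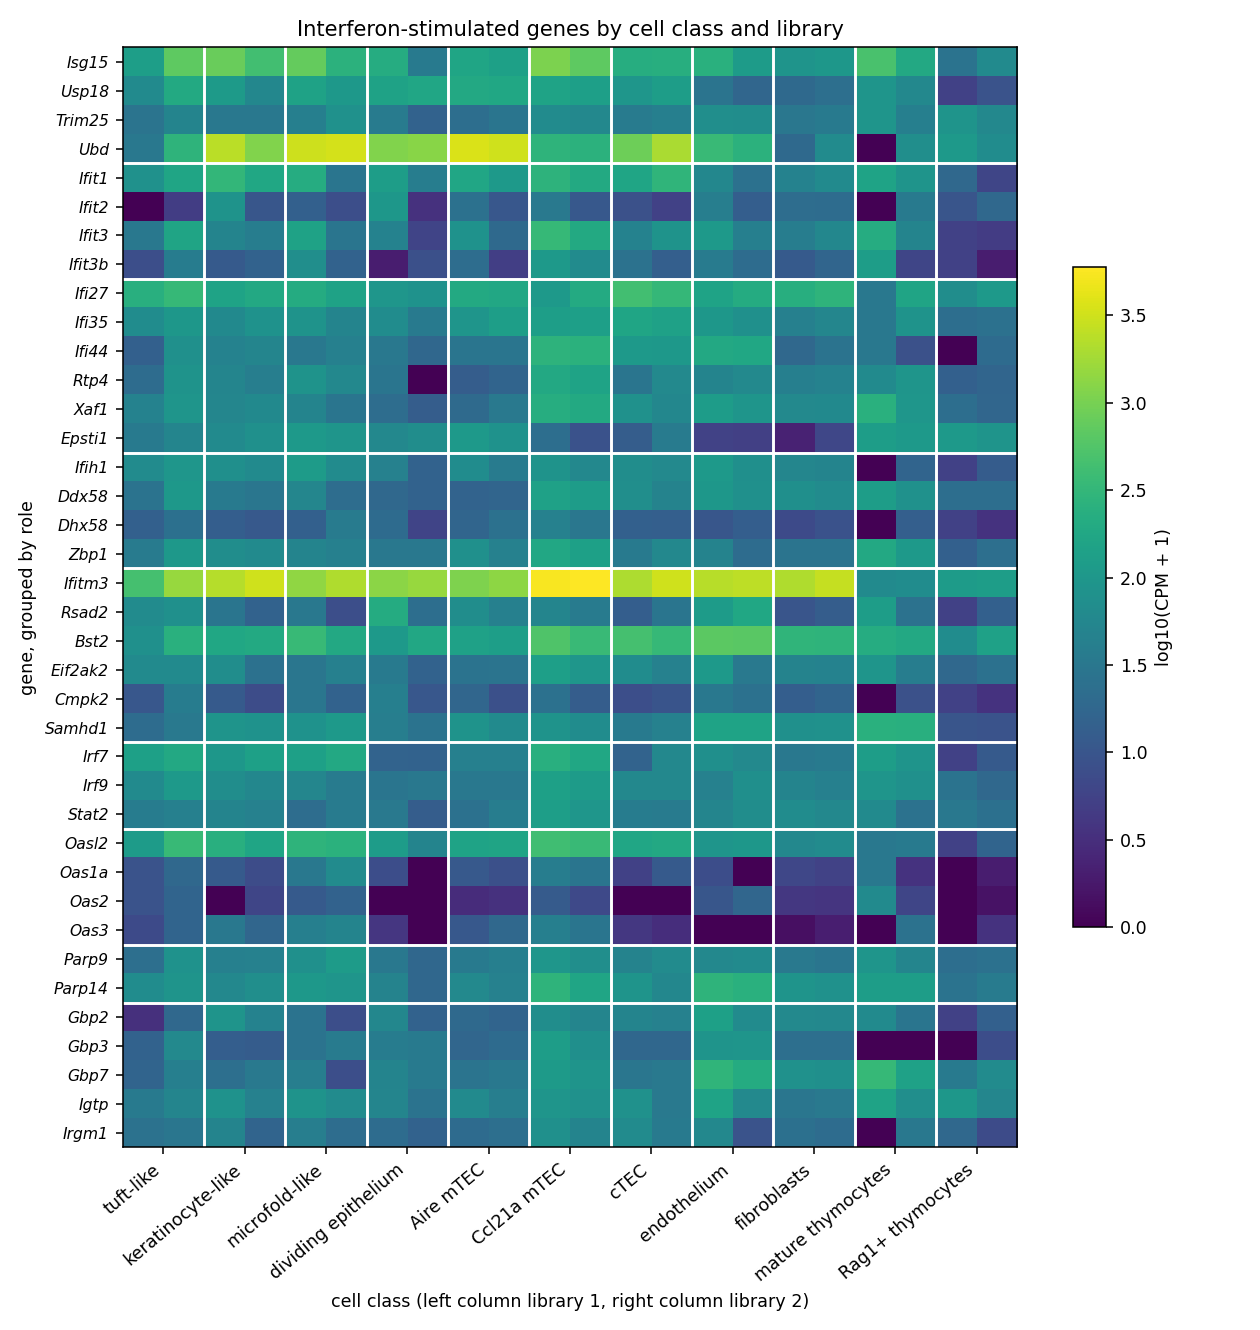
Level of each of the 38 members as log10(CPM + 1) in 11 of the 13 cell classes (B-like cells and dividing thymocytes are not drawn), with library 1 in the left and library 2 in the right column of each class. Among Aire mTEC, Ccl21a mTEC and cTEC, the Ccl21a mTEC columns are brightest for 29 rows in both libraries, whereas Ubd is brightest in Aire mTEC and microfold-like cells and reaches 3636 and 3139 CPM in Aire mTEC. The share of all genes ranked this way was not counted.

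The members were most abundant in Ccl21a mTEC and least abundant in thymocytes that had not matured. Their summed level was 6897 and 6354 CPM in Aire mTEC, 11844 and 10819 CPM in Ccl21a mTEC and 5780.1 and 7879 CPM in cTEC. In the mimetic classes, the medullary cells that resemble peripheral epithelia, it was 2181 and 5772 CPM in tuft-like, 7919.8 and 6721 CPM in keratinocyte-like and 8126 and 7992 CPM in microfold-like cells, and 4473 and 3869 CPM in dividing epithelium. The tuft-like libraries were the farthest apart. Endothelium had 6622 and 5970.3 CPM and fibroblasts 3929 and 4705 CPM. Among the lymphoid classes it was 2548 and 1566 CPM in B-like cells, 3956 and 2585 CPM in mature thymocytes, 1032 and 1158 CPM in Rag1-positive thymocytes and 664 and 701 CPM in dividing thymocytes. Dividing and Rag1-positive thymocytes were the lowest of the 13 classes in both libraries. Counting error differed with the size of the class. In library 1 the exact 95% Poisson interval was 11731 to 11957 CPM in Ccl21a mTEC, clear of every other class, but 1914 to 3325 CPM in B-like cells, which spans the tuft-like level, and 3298 to 4707 CPM in mature thymocytes, which spans those of fibroblasts and dividing epithelium. Intervals cover counting error only.

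A pair of genes made up much of these sums. Ifitm3, a membrane protein that blocks viral entry, gave 15.9 and 21.4 percent of member UMIs in Aire mTEC and 45.6 and 55.0 percent in Ccl21a mTEC. Ubd, a ubiquitin-like protein that marks substrates for the proteasome, gave 52.7 and 49.4 percent in Aire mTEC and 2.40 and 2.45 percent in Ccl21a mTEC. The other 36 members, called the remaining members from here on, summed to 2164 and 1857 CPM in Aire mTEC, 6157 and 4599 CPM in Ccl21a mTEC and 2854 and 2783 CPM in cTEC. Without that pair Aire mTEC lay below cTEC in both libraries, and Ccl21a mTEC were still the highest class in both. Endothelium had 3886 and 3188 CPM of them, fibroblasts 1805 and 1897 CPM and Rag1-positive thymocytes 811 and 964 CPM. Tuft-like epithelium again differed between libraries, with 1698 and 3919.9 CPM.

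**Figure D2:**
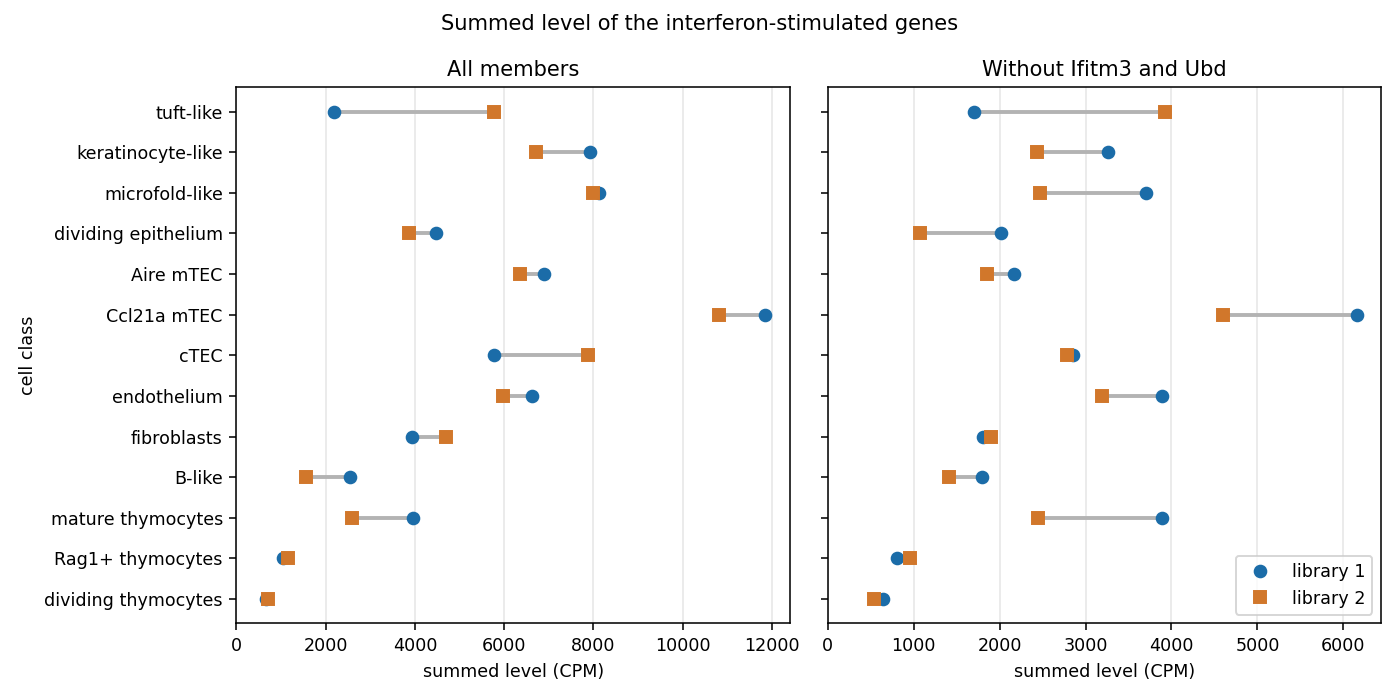
Summed level (CPM) of all 38 members, left, and of the 36 members other than Ifitm3 and Ubd, right, in each cell class; circles are library 1, squares library 2 and grey bars join them. Ccl21a mTEC are highest in both panels, and Aire mTEC, at 6897 and 6354 CPM on the left, have 2164 and 1857 CPM on the right, close to fibroblasts.

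The main contrast asked how Aire mTEC and Ccl21a mTEC, the principal states of the medulla, differ. Most members were lower in Aire mTEC. Of 37 members that passed the low-count filter (Oas2 did not), edgeR's quasi-likelihood test called 23 lower and 2 higher, with p-values adjusted over 11987 genes and a threshold of 0.05. Of all genes, 28.8% were called, 10.0% lower and 18.7% higher. Over the tested members the median log2 fold was -1.38, beside 0.13 over all genes. All 25 called members had the same sign in both libraries, but the calls rest on these same libraries, so this is no independent check. The 2 that were higher were Ubd and Epsti1.

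Among the modifiers, Isg15, the ubiquitin-like protein that is conjugated to targets during an interferon response, had 163 and 138 CPM in Aire mTEC, against 1077 and 680.2 CPM in Ccl21a mTEC (log2 fold -2.33, SE 0.66, edgeR adjusted p = 0.0106). Both Aire values lay below both Ccl21a values. Ubd went the other way, with 3636 and 3139 CPM in Aire mTEC, against 285 and 265 CPM in Ccl21a mTEC (log2 fold 3.82, SE 0.74, edgeR adjusted p = 0.000428). Trim25, the ligase that activates the RNA sensor RIG-I, was also called lower. Usp18, which removes Isg15 from proteins and restrains the type I receptor, was not called and had 188 and 176 CPM in Aire mTEC, against 153 and 133 CPM in Ccl21a mTEC.

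The 3 members that are signalling factors, Irf7, Stat2 and Irf9, were all lower in Aire mTEC. Other factors, among them Irf1, Irf5 and Irf8, are given below and were not lower as a group. Irf7, the factor that amplifies type I interferon production, had 42.4 and 43.3 CPM in Aire mTEC, against 239 and 177 CPM in Ccl21a mTEC (log2 fold -2.10, SE 0.34, edgeR adjusted p = 7.86e-05). Stat2 had 24.9 and 38.5 CPM in Aire mTEC, against 129.7 and 94.7 CPM in Ccl21a mTEC (log2 fold -1.67, SE 0.31, edgeR adjusted p = 0.000324). Irf9, its partner at the ISRE, was lower too (log2 fold -1.82, SE 0.28). In none of the 3 did the groups overlap. How many of all genes showed no such overlap was not counted, here or in the other contrasts.

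Among the sensors, Ddx58, which encodes RIG-I, had 14.97 and 16.0 CPM in Aire mTEC, against 142 and 121 CPM in Ccl21a mTEC (log2 fold -2.90, SE 0.40, edgeR adjusted p = 1.58e-05). Zbp1, a sensor of nucleic acids in the Z conformation, was called lower, and Ifih1 and Dhx58, the other RIG-I-like receptors, were not called. The IFIT genes, whose proteins bind foreign RNA, were divided. Ifit3 had 83.9 and 18.5 CPM in Aire mTEC, against 342 and 193 CPM in Ccl21a mTEC (log2 fold -2.18, SE 0.65, edgeR adjusted p = 0.0147), and its near copy Ifit3b had a log2 fold of -2.48 (SE 0.60). Ifit1 and Ifit2 were not called, with log2 folds of -0.60 and -0.09.

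Of the effectors, Ifitm3 had 1098 and 1358 CPM in Aire mTEC, against 5402 and 5954 CPM in Ccl21a mTEC (log2 fold -2.03, SE 0.49, edgeR adjusted p = 0.00303). Bst2, or tetherin, which holds budding virus at the cell surface, had 146 and 129 CPM in Aire mTEC, against 535 and 364 CPM in Ccl21a mTEC (log2 fold -1.52, SE 0.44, edgeR adjusted p = 0.0115). Eif2ak2, the kinase PKR that halts translation on double-stranded RNA, was called lower too. Rsad2 (viperin), its neighbour Cmpk2, a mitochondrial nucleotide kinase, and Samhd1, which breaks down nucleotide triphosphates, were not called, and Rsad2 stood at 70.9 and 43.3 CPM in Aire mTEC, against 50.8 and 35.9 CPM in Ccl21a mTEC. Of the GTPases that act on intracellular pathogens, Gbp2, Gbp3, Gbp7 and Irgm1 were lower and Igtp was not called. Gbp2 had 18.6 and 15.2 CPM in Aire mTEC, against 69.0 and 50.9 CPM in Ccl21a mTEC (log2 fold -1.63, SE 0.47, edgeR adjusted p = 0.011). Gbp3 had a log2 fold of -2.30 (SE 0.40).

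Among the lower members, Rtp4 and Ifi44 had the largest folds. Rtp4 had 12.1 and 15.2 CPM in Aire mTEC, against 190.0 and 156 CPM in Ccl21a mTEC (log2 fold -3.50, SE 0.54, edgeR adjusted p = 4.84e-05). Ifi44 had 28.0 and 28.1 CPM in Aire mTEC, against 271 and 255 CPM in Ccl21a mTEC (log2 fold -3.02, SE 0.45, edgeR adjusted p = 2.92e-05). Xaf1, a partner of the apoptosis inhibitor XIAP, had 18.9 and 32.1 CPM in Aire mTEC, against 225 and 194 CPM in Ccl21a mTEC (log2 fold -2.90, SE 0.37, edgeR adjusted p = 5.18e-06). In all 3 both Aire values lay far below both Ccl21a values, and for Epsti1 both lay above. Epsti1 had 110.7 and 81.8 CPM in Aire mTEC, against 22.5 and 7.89 CPM in Ccl21a mTEC (log2 fold 2.73, SE 0.49, edgeR adjusted p = 0.000204). The ADP-ribosyltransferases Parp9 and Parp14 and the oligoadenylate synthetase genes Oas1a and Oasl2 were called lower.

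Markers of other blood cells moved with this contrast. The 8 macrophage markers summed to 902 and 842 CPM in Aire mTEC, against 18.5 and 12.2 CPM in Ccl21a mTEC, and none was at 0 in Aire mTEC. The 5 neutrophil markers summed to 2064 and 1099.9 CPM in Aire mTEC, against 16.6 and 24.4 CPM in Ccl21a mTEC. Among 8 dendritic markers, Cd209a was at 0 in both classes, and the sum was 335 and 321 CPM in Aire mTEC, against 24.4 and 23.7 CPM in Ccl21a mTEC. Their part in the result was not tested.

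**Figure D3:**
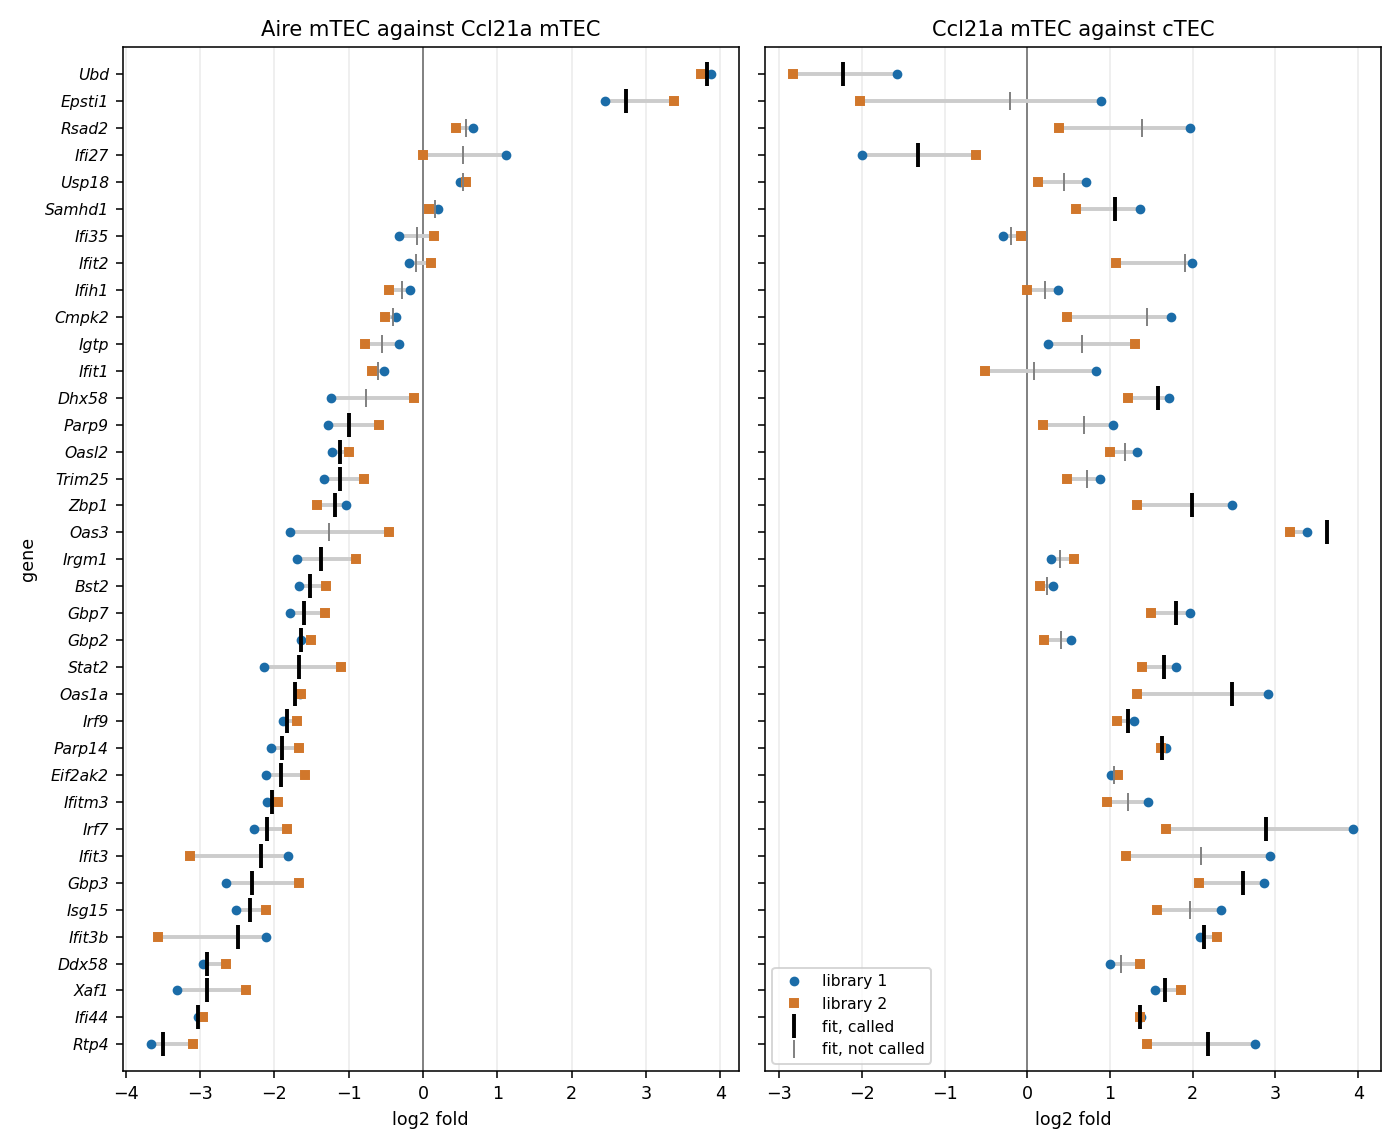
Log2 folds of the 37 tested members in Aire mTEC against Ccl21a mTEC, left, and in Ccl21a mTEC against cTEC, right; circles and squares are the folds within library 1 and library 2, and vertical ticks are the edgeR estimates, black where called. In the left panel 31 members lie below 0 by estimate, with Ubd and Epsti1 at the top; in the right panel 33 lie above 0.

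Ccl21a mTEC stood above cTEC for many members, and Aire mTEC differed from cTEC in few. The contrast of Ccl21a mTEC with cTEC was added after the values had been seen. In it 15 members were higher and 2 lower, where 10.4% of all genes were called, 4.54% higher and 5.88% lower, and the median log2 fold was 1.22 for the members and 0.01 for all genes. Irf7 had 239 and 177 CPM in Ccl21a mTEC, against 15.2 and 56.2 CPM in cTEC (log2 fold 2.88, SE 0.39, edgeR adjusted p = 3.67e-05). Stat2 had 129.7 and 94.7 CPM in Ccl21a mTEC, against 37.9 and 36.7 CPM in cTEC (log2 fold 1.65, SE 0.33, edgeR adjusted p = 0.00197). Gbp3, Oas1a, Rtp4, Ifit3b, Zbp1 and Gbp7 had log2 folds from 1.80 to 2.61. Oas3, one of the synthetases that activate RNase L, had a log2 fold of 3.63 (SE 0.71), on 5 and 1 UMIs in cTEC.

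Isg15 had 1077 and 680.2 CPM in Ccl21a mTEC, against 220.3 and 235 CPM in cTEC, and Ifit3 342 and 193 CPM in Ccl21a mTEC, against 45.5 and 86.4 CPM in cTEC. For neither did the groups overlap, but neither was called (log2 fold 1.96, SE 0.66, edgeR adjusted p = 0.0616 for Isg15, and edgeR adjusted p = 0.0577 for Ifit3). Bst2 had 450.1 and 337 CPM in cTEC, close to its level in Ccl21a mTEC. Gbp2 had 49.2 and 45.4 CPM and Ifitm3 2045 and 3137 CPM in cTEC, and neither was called. The 2 lower members were Ifi27 and Ubd. Ubd had 285 and 265 CPM in Ccl21a mTEC, against 881 and 1959 CPM in cTEC (log2 fold -2.23, SE 0.69, edgeR adjusted p = 0.0416), a call kept in 3 of 8 alternative fits. Ifi27 had 104 and 204 CPM in Ccl21a mTEC, against 433 and 324 CPM in cTEC (log2 fold -1.32, SE 0.39, edgeR adjusted p = 0.0325), kept in 5 of 8.

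Between Aire mTEC and cTEC, 3 members were higher and 4 lower in Aire mTEC, where 22.8% of all genes were called, 14.4% higher and 8.39% lower. The members' share was thus no larger than the background, with a median log2 fold of -0.08 for the members and 0.17 for all genes. The lower members were Ddx58, with 14.97 and 16.0 CPM in Aire mTEC, against 73.2 and 47.5 CPM in cTEC (log2 fold -1.77, SE 0.42, edgeR adjusted p = 0.00408), and Ifi44 (-1.66), Bst2 (-1.28) and Xaf1 (-1.24). Epsti1 had 110.7 and 81.8 CPM in Aire mTEC, against 11.99 and 36.7 CPM in cTEC (log2 fold 2.51, SE 0.54, edgeR adjusted p = 0.00188). Samhd1 (1.22, SE 0.30) and Oas3 (2.37, SE 0.77) were the other higher members. Ubd was not called here (edgeR adjusted p = 0.0962), with 3636 and 3139 CPM in Aire mTEC, against 881 and 1959 CPM in cTEC. Thymocyte markers summed to 233 and 471 CPM in Aire mTEC, 227 and 618 CPM in Ccl21a mTEC and 1436 and 1339 CPM in cTEC. Markers of myeloid cells were higher in Aire mTEC than in cTEC in both libraries, as Epsti1 and Samhd1 were. The macrophage list summed to 902 and 842 CPM in Aire mTEC, against 18.9 and 79.9 CPM in cTEC, the neutrophil list to 2064 and 1099.9 CPM in Aire mTEC, against 0.631 and 328 CPM in cTEC, and the dendritic list to 335 and 321 CPM in Aire mTEC, against 35.4 and 64.8 CPM in cTEC. The part of these markers in the contrasts was not tested.

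Ranking the 3 states within each library put the same state on top for most members. Ccl21a mTEC were highest for 29 of 38 members in both libraries, and Aire mTEC for 4 (Rsad2, Usp18, Epsti1 and Ubd). cTEC were highest for Ifi27 and Ifi35. Aire mTEC were lowest for 19 members in both libraries, among them Isg15, Bst2, Ifitm3, Gbp2 and Ddx58. Over the 10 classes other than B-like cells and mature and dividing thymocytes, Ccl21a mTEC were highest for 13 members in both libraries and endothelium for 5 (Bst2, Parp14, Gbp2, Gbp7 and Samhd1). All genes were not ranked in this way, so the counts are not read as particular to the members.

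The mimetic states were set against Aire mTEC as the mean of tuft-like and keratinocyte-like cells. Here 5 members were higher and 3 lower, where 22.1% of all genes were called, 8.22% higher and 13.9% lower. Over both directions the members' share, 21.6%, was no larger than that of all genes. The median log2 fold was 0.11 for the members and -0.12 for all genes. The members' median was -0.29 within library 1 and 0.33 within library 2, so its direction turned. Irf7 had 140.03 and 187 CPM in tuft-like and 97.6 and 141 CPM in keratinocyte-like cells, against 42.4 and 43.3 CPM in Aire mTEC (log2 fold 1.49, SE 0.31, edgeR adjusted p = 0.00146). All 4 mimetic values lay above both Aire values. Rtp4, Ddx58, Xaf1 and Irf9 were higher by log2 folds of 1.02 to 1.61. Ubd was lower (log2 fold -2.95, SE 0.56, edgeR adjusted p = 0.000533), but the mimetic classes differed among themselves, with 31.1 and 285 CPM in tuft-like, 2402 and 1128 CPM in keratinocyte-like and 3035 and 3392 CPM in microfold-like cells. Usp18 (-1.03) and Samhd1 (-0.85, a call kept in 5 of 8 alternative fits) were the other lower members. Macrophage markers summed to 67.0 and 29.2 CPM in tuft-like and 302 and 474 CPM in keratinocyte-like cells, below Aire mTEC. Neutrophil markers summed to 4.79 and 5.85 CPM in tuft-like and 727 and 389.9 CPM in keratinocyte-like cells, and dendritic markers to 32.3 and 31.2 CPM in tuft-like and 106 and 90.7 CPM in keratinocyte-like cells. Their part in this contrast was not tested.

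Isg15 was uneven among the mimetic cells and between libraries. It had 129 and 684 CPM in tuft-like, 812 and 422 CPM in keratinocyte-like, 751 and 266 CPM in microfold-like cells and 213 and 34.1 CPM in dividing epithelium. Ifit3 had 31.1 and 159.8 CPM in tuft-like, 49.7 and 38.9 CPM in keratinocyte-like, 151 and 28.7 CPM in microfold-like cells and 46.0 and 4.87 CPM in dividing epithelium. Tuft-like cells were high in library 2 for both genes, and the microfold-like and dividing classes in library 1. In library 1, however, 1 cell of dividing epithelium held 1239 of the 2064 UMIs of the remaining members. Likewise, 1 microfold-like cell held 366 of 1399. The part of these cells in the Isg15 and Ifit3 levels was not tested. Stat2 ranged from 12.2 CPM in dividing epithelium of library 2 to 49.7 CPM in keratinocyte-like cells of library 1 over these classes. Irf7 had 140.1 and 187 CPM in microfold-like cells and 14.7 and 14.6 CPM in dividing epithelium, so dividing cells were the lowest. Bst2 had 77.8 and 249.5 CPM in tuft-like, 174 and 194 CPM in keratinocyte-like, 349 and 187 CPM in microfold-like cells and 109.7 and 183 CPM in dividing epithelium. Ifitm3 had 451 and 1567 CPM in tuft-like, 2259.8 and 3154 CPM in keratinocyte-like, 1393 and 2135 CPM in microfold-like cells and 1319 and 1548 CPM in dividing epithelium. Tuft-like cells of library 1 were the lowest for both. Gbp2 had 2.39 and 17.5 CPM in tuft-like, 88.7 and 46.6 CPM in keratinocyte-like, 26.4 and 7.19 CPM in microfold-like cells and 54.8 and 14.6 CPM in dividing epithelium. Ubd in dividing epithelium was at 1134 and 1248 CPM, below Aire mTEC in both libraries.

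The stroma outside the epithelium was compared with fibroblasts as the common base, so these contrasts share the fibroblast sums. For the mean of Aire mTEC, Ccl21a mTEC and cTEC, 16 members were higher than in fibroblasts and 1 lower, where 41.3% of all genes were called, 19.2% higher and 22.2% lower. Over both directions the members' share, 45.9%, was close to that of all genes. The balance of the calls moved with the filters: 15 higher and 5 lower with the stricter cell filter, 14 and 4 with the looser one, and 12 and 6 without the low-count filter. The median log2 fold was 0.73 for the members and -0.01 for all genes. Ubd had the largest fold (log2 fold 4.72, SE 0.73, edgeR adjusted p = 1.4e-05), and fibroblasts held 18.8 and 64.4 CPM of it. Epsti1 (log2 fold 3.29, SE 0.48), Usp18 (2.68, SE 0.37), Ifi44 (1.97, SE 0.37), Oasl2 (1.74, SE 0.35), Ifit1 (1.66, SE 0.45) and Isg15 (1.59, SE 0.57) were higher. So was Oas3 (3.83, SE 0.61), on 7 and 8 UMIs in fibroblasts, and Gbp7 was the lower member (-0.91, SE 0.27). Macrophage markers summed to 5.16 and 16.6 CPM in fibroblasts, below each of the 3 epithelial states except Ccl21a mTEC of library 2, and their part was not tested. Fibroblasts had 89.2 and 97.8 CPM of Isg15, 39.2 and 55.1 CPM of Ifit3, 31.1 and 35.4 CPM of Irf7, 68.3 and 57.8 CPM of Stat2, 294 and 285 CPM of Bst2, 2105 and 2743 CPM of Ifitm3 and 58.6 and 56.3 CPM of Gbp2.

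Ccl21a mTEC alone were then set against fibroblasts, a comparison also added after the values had been seen. In edgeR 25 members were higher and 0 lower, where 28.9% of all genes were called, 12.5% higher and 16.4% lower. At an unadjusted p under 0.05, edgeR had 1 member lower, and DESeq2 called 1 lower after adjustment. The median log2 fold was 1.32 beside -0.05 over all genes. Oas3 (log2 fold 5.46, SE 0.60), Ifi44 (3.43, SE 0.43) and Isg15 (3.02, SE 0.68) had the largest folds. Irf7, Usp18, Ubd, Oas1a and Ifit3b completed the 8 called members with the largest folds. Ubd, lower in Ccl21a mTEC than in the other epithelial states, was thus higher there than in fibroblasts. Its log2 folds ran from 2.02 to 2.90 over the 8 alternative fits. Ifitm3, Bst2, Stat2 and Gbp2 were not called, with log2 folds of 1.08, 0.48, 0.66 and -0.13. Epsti1 was called, but its fold was 3.17 in library 1 and 0.34 in library 2.

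In endothelium, 9 members were higher than in fibroblasts and 0 lower in edgeR, where 17.7% of all genes were called, 7.52% higher and 10.2% lower. DESeq2 also called 9 higher and 0 lower, and at an unadjusted p under 0.05 edgeR had 11 higher and 0 lower. The median log2 fold was 0.70 for the members (0.73 with Oas3, which had 0 UMIs in endothelium, set to the level of 3 counts over both libraries) and -0.19 for all genes. Rsad2 had 118 and 178 CPM in endothelium, against 8.82 and 11.9 CPM in fibroblasts (log2 fold 3.68, SE 0.70, edgeR adjusted p = 0.000448). Ubd had 358 and 269 CPM in endothelium, against 18.8 and 64.4 CPM in fibroblasts (log2 fold 2.97, SE 0.73, edgeR adjusted p = 0.00513), and Ifi44 186 and 174 CPM in endothelium, against 18.2 and 26.1 CPM in fibroblasts (log2 fold 2.95, SE 0.45, edgeR adjusted p = 3.82e-05). Endothelial values lay above fibroblast values in both libraries for all 3. The GTPases Gbp3 (1.87), Igtp (1.59) and Gbp7 (1.58) were higher, with Parp14 (1.54), Samhd1 (0.86) and Trim25 (1.02, a call kept in 3 of 8 alternative fits).

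Bst2 had 668 and 637 CPM in endothelium, its highest level of the 10 classes ranked above, but was not called against fibroblasts (log2 fold 1.06, SE 0.44, edgeR adjusted p = 0.109). Isg15 had 245 and 116 CPM, Ifit3 104 and 41.3 CPM, Irf7 74.8 and 57.9 CPM and Stat2 52.1 and 70.3 CPM in endothelium. Ifitm3 had 2379 and 2514 CPM and Gbp2 140.5 and 66.2 CPM there. For Isg15, Ifit3, Irf7, Stat2 and Ifitm3 these were below both Ccl21a mTEC values.

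Thymocytes that carry mature markers had higher levels of several members than Rag1-positive thymocytes. The latter were gated on at least 3 of Rag1, Rag2, Ptcra, Themis, Arpp21, Rmnd5a and Aqp11. Cd4 and Cd8 were not required together, so their exact stage was not set. In edgeR 10 members were higher and 0 lower, where 2.36% of all genes were called, 1.46% higher and 0.901% lower. DESeq2 called 13 higher and 0 lower, and at an unadjusted p under 0.05 edgeR had 18 higher and 0 lower. The median log2 fold was 1.76 for the members (1.76 also with Gbp3, at 0 UMIs in mature thymocytes, set to the level of 3 counts) and -0.22 for all genes. Library 1 held only 7 mature thymocytes, with 32105 UMIs in all. Without the cell with the most member UMIs per UMI, the remaining members fell to 2226 CPM in mature thymocytes of library 1, against 3893 CPM with it.

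Samhd1 had the largest fold, with 249.2 and 237 CPM in mature thymocytes, against 8.86 and 8.29 CPM in Rag1-positive thymocytes (log2 fold 4.88, SE 0.41, edgeR adjusted p = 2.53e-07). Irf7 had 125 and 87.7 CPM in mature thymocytes, against 4.43 and 10.9 CPM in Rag1-positive thymocytes (log2 fold 3.36, SE 0.54, edgeR adjusted p = 0.00104). Ifit1 had 156 and 90.3 CPM in mature thymocytes, against 17.7 and 5.18 CPM in Rag1-positive thymocytes (log2 fold 3.90, SE 0.85, edgeR adjusted p = 0.0126). In all 3 the mature values lay above the others in both libraries. Usp18 (3.11, SE 0.70), Xaf1 (2.86, SE 0.50), Zbp1 (2.67, SE 0.52), Irf9 (2.13, SE 0.42) and Ddx58 (2.08, SE 0.54) were higher too, on 3 to 8 UMIs in mature thymocytes of library 1, and so were Parp14 and Gbp7. The calls of Ddx58 and Irf9 were kept in 5 and 6 of 8 alternative fits.

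Isg15 had 498 and 188 CPM in mature thymocytes, against 26.6 and 63.2 CPM in Rag1-positive thymocytes, and was not called (edgeR adjusted p = 0.15). Ifit3 had 218 and 49.0 CPM in mature thymocytes, against 4.43 and 3.63 CPM in Rag1-positive thymocytes (edgeR adjusted p = 0.0824). For both, the groups did not overlap, but neither was called. Bst2 had 218 and 191 CPM in mature, 66.5 and 146 CPM in Rag1-positive and 53.1 and 88.7 CPM in dividing thymocytes. Stat2 had 62.3 and 25.8 CPM in mature, 31.0 and 23.8 CPM in Rag1-positive and 44.3 and 18.0 CPM in dividing thymocytes. Gbp2 had 62.3 and 28.4 CPM in mature, 4.43 and 13.5 CPM in Rag1-positive and 0 and 7.78 CPM in dividing thymocytes, so its mature values were the highest. Ifitm3 had 62.3 and 67.1 CPM in mature, 115 and 126 CPM in Rag1-positive and 17.7 and 118 CPM in dividing thymocytes. Ubd had 0 and 72.2 CPM in mature, 106 and 67.9 CPM in Rag1-positive and 0 and 44.2 CPM in dividing thymocytes. Neither was higher in mature thymocytes in both libraries. Dividing thymocytes had 17.7 and 28.5 CPM of Isg15, 0 and 4.91 CPM of Ifit3 and 8.85 and 4.91 CPM of Irf7. The 14 thymocyte markers, which include Rag1 and Rag2, summed to 7133 and 8698 CPM in mature thymocytes, against 18388 and 14682 CPM in Rag1-positive thymocytes, and all 8 macrophage markers were at 0 in mature thymocytes. Of the 8 dendritic markers, which include Ccr7, a gene the mature gate used, 7 and 4 were at 0 in mature thymocytes, and the sum was 218 and 472 CPM there, against 22.2 and 20.7 CPM in Rag1-positive thymocytes. Their part in the result was not tested.

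**Figure D4:**
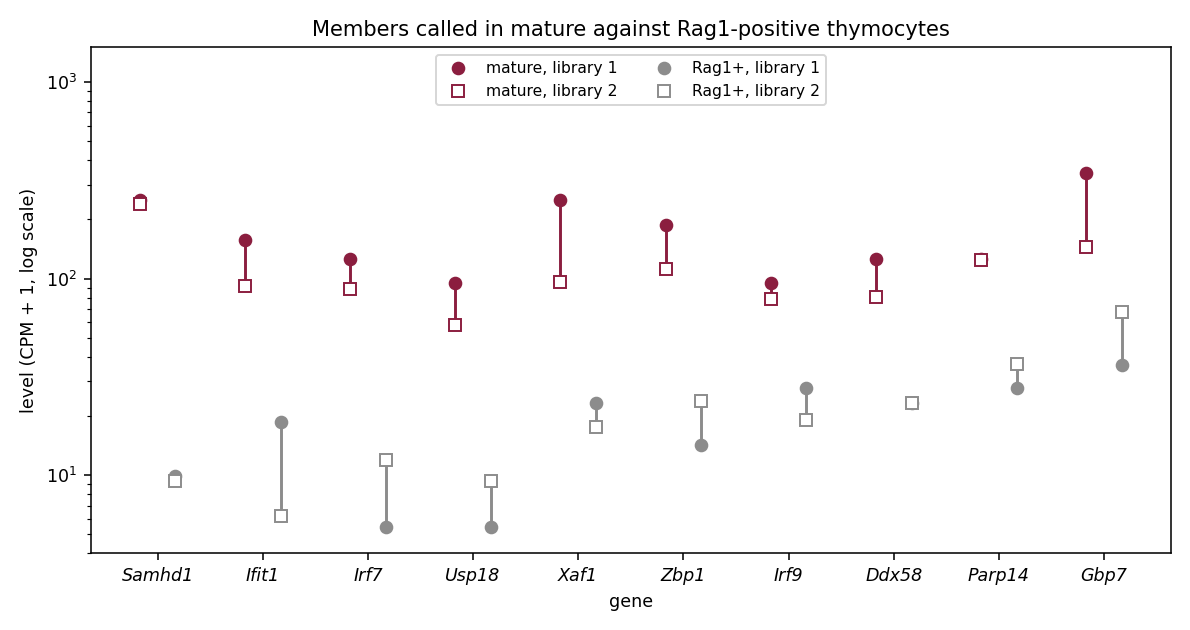
Level (CPM + 1, log scale) of the 10 members called higher in mature thymocytes, red, against Rag1-positive thymocytes, grey; circles are library 1, squares library 2. Each red pair lies above its grey pair, and for Samhd1 the values are 249.2 and 237 CPM in mature against 8.86 and 8.29 CPM in Rag1-positive thymocytes.

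B-like cells were too few to describe closely, with 5 and 23 cells. Against Rag1-positive thymocytes, 1 member was higher and 0 lower in edgeR, where 2.82% of all genes were called, 1.69% higher and 1.13% lower. The members' share, 2.70%, was no larger than that of all genes. DESeq2 called 3 higher and 0 lower, and at an unadjusted p under 0.05 edgeR had 7 higher and 1 lower. The member was Samhd1, with 519 and 207 CPM in B-like cells, against 8.86 and 8.29 CPM in Rag1-positive thymocytes (log2 fold 5.08, SE 0.46, edgeR adjusted p = 6.18e-07). The median log2 fold was 0.63 for the members (0.84 with Ifih1, at 0 UMIs in B-like cells, set to the level of 3 counts) and -0.50 for all genes. Its direction turned between libraries, with a members' median of -2.04 within library 1 and 0.73 within library 2. Isg15 had 0 and 4 UMIs in B-like cells, Ifit3 0 and 6, Irf7 0 and 2, Stat2 2 and 3, Bst2 1 and 9, Gbp2 1 and 0, Ubd 0 and 2 and Ifitm3 16 and 13. The B-like cells of library 1 also held fibroblast markers at 5096 CPM, against 498 CPM in library 2, and the part of fibroblast RNA in the Ifitm3 level was not tested.

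The genes around the response were taken as 5 lists of 56 genes, of which 54 were matched and 27 tested. Of these, edgeR called 5 higher and 5 lower in Aire mTEC against Ccl21a mTEC, 6 and 3 in Aire mTEC against cTEC, 1 and 1 in Ccl21a mTEC against cTEC, and 2 and 5 in mimetic mTEC against Aire mTEC. In the same order, 28.8%, 22.8%, 10.4% and 22.1% of all genes were called. Against fibroblasts, 5 were higher and 7 lower in epithelium, 3 and 3 in Ccl21a mTEC, and 0 and 0 in endothelium, where 3 were higher and 0 lower at an unadjusted p under 0.05. The shares of all genes called were 41.3%, 28.9% and 17.7%. Against Rag1-positive thymocytes, 2 were higher and 0 lower in mature thymocytes (6 and 2 at an unadjusted p under 0.05), and 0 were higher and 2 lower in B-like cells (4 and 2). Here 2.36% and 2.82% of all genes were called. The counts are not read as particular to these lists. Irf8 and Irf5, factors of myeloid cells, and Tmem173, which encodes STING, the adaptor of cytosolic DNA sensing, were higher in Aire mTEC than in Ccl21a mTEC, by log2 folds of 2.28, 4.04 and 2.14. The macrophage, neutrophil and dendritic markers given above moved the same way, and their part was not tested. Socs1, a brake on the receptors, was higher (1.42), and Socs3, Adar and Ptpn11 were lower. Irf1, an interferon-induced transcription factor, was not called, with 125 and 73.8 CPM in Aire mTEC, against 86.4 and 76.1 CPM in Ccl21a mTEC.

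The chains of the type I receptor were present in all 3 epithelial states. Ifnar1 had 34.7 and 30.5 CPM in Aire mTEC, 37.6 and 28.7 CPM in Ccl21a mTEC and 34.7 and 34.6 CPM in cTEC, and Ifnar2 had 49.4 and 48.9 CPM in Aire mTEC, 85.3 and 92.6 CPM in Ccl21a mTEC and 77.0 and 69.1 CPM in cTEC. Neither was called between the states. For Ifngr1, Aire mTEC had 36.4 and 60.2 CPM, against 134 and 139.9 CPM in Ccl21a mTEC (log2 fold -1.35, SE 0.41, edgeR adjusted p = 0.0151), while Ifngr2 went the other way (log2 fold 1.04, SE 0.36). Epithelium was lower than fibroblasts in Ifnar2 (log2 fold -1.24, SE 0.20) and Ifngr1 (-2.48, SE 0.29), and fibroblasts had 374 and 434 CPM of Ifngr1. The type III chain Ifnlr1 did not pass the filter. Its UMIs were 18 and 0 in Aire mTEC, 20 and 7 in Ccl21a mTEC and 4 and 0 in cTEC, against 1 and 1 in fibroblasts.

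Interferon transcripts were rare, and of the classes and libraries Aire mTEC of library 1 held the most of type III, 33 UMIs. Ifnl2 had 12 UMIs in 6 of these cells and Ifnl3 21 UMIs in 10 cells, so that 12 of 188 cells held either. Ifnb1 had 6 UMIs, all in 1 cell. Ifna12 and Ifnab had 3 each, and Ifna9, Ifna13, Ifna16 and Ifne 1 each, so that type I ligands were seen in 5 cells. As the Ifna genes, and Ifnl2 and Ifnl3, are close copies, reads may be divided between them. In Aire mTEC of library 2, 1 of 121 cells held 1 UMI of Ifnl2, with a median depth of 4853 UMIs per cell beside 18509 in library 1. The part of depth was not tested.

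Elsewhere in the epithelium, cells that met no state's gate held 12 and 1 UMIs of type III, in 6 and 1 cells. Also, 1 keratinocyte-like cell of library 1 held 6 UMIs of Ifnl2 and 1 microfold-like cell 1 UMI of Ifnl3, and no type I or III UMI was found in cTEC or tuft-like cells. For cTEC, 0 of 71 and 0 of 102 cells allow shares of up to 4.23% and 2.94% of cells with a UMI. Ccl21a mTEC held 1 UMI of Ifnz, and fibroblasts 4 and 1 UMIs of Ifnz and Ifnk together. Ifng was concentrated in single cells: 15 UMIs in 1 Rag1-positive thymocyte of library 2 and 6 UMIs in 1 cell of dividing epithelium of library 2. Each of the other classes and libraries that held any had 1 UMI.

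Whether a class was high through all its cells or through a few was read from cells thinned to 1000 UMIs each. Counted over the remaining members, at least 3 UMIs were found in 25.0% and 25.6% of Aire mTEC, 84.2% and 69.9% of Ccl21a mTEC and 50.7% and 40.2% of cTEC. Endothelium had 53.6% and 54.0%, fibroblasts 24.2% and 25.4%, mature thymocytes 42.9% and 42.0% and Rag1-positive thymocytes 7.53% and 7.05%. Rag1-positive thymocytes had the lowest of these shares. Their medians were 2157 and 2000.5 UMIs per cell before thinning, against 18509 and 4853 in Aire mTEC. Free RNA was not measured, and their share may mix it with their own transcripts, so it is not a background level. As a caution, a share at or near theirs is not read as expression. The exact 95% interval was 80.1 to 87.8% in Ccl21a mTEC of library 1 and 19.0 to 31.8% in Aire mTEC of library 1. Unthinned, at least 1 UMI was found in 98.9% and 95.0% of Aire mTEC, 100.0% and 97.5% of Ccl21a mTEC and 77.4% and 76.4% of Rag1-positive thymocytes.

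**Figure D5:**
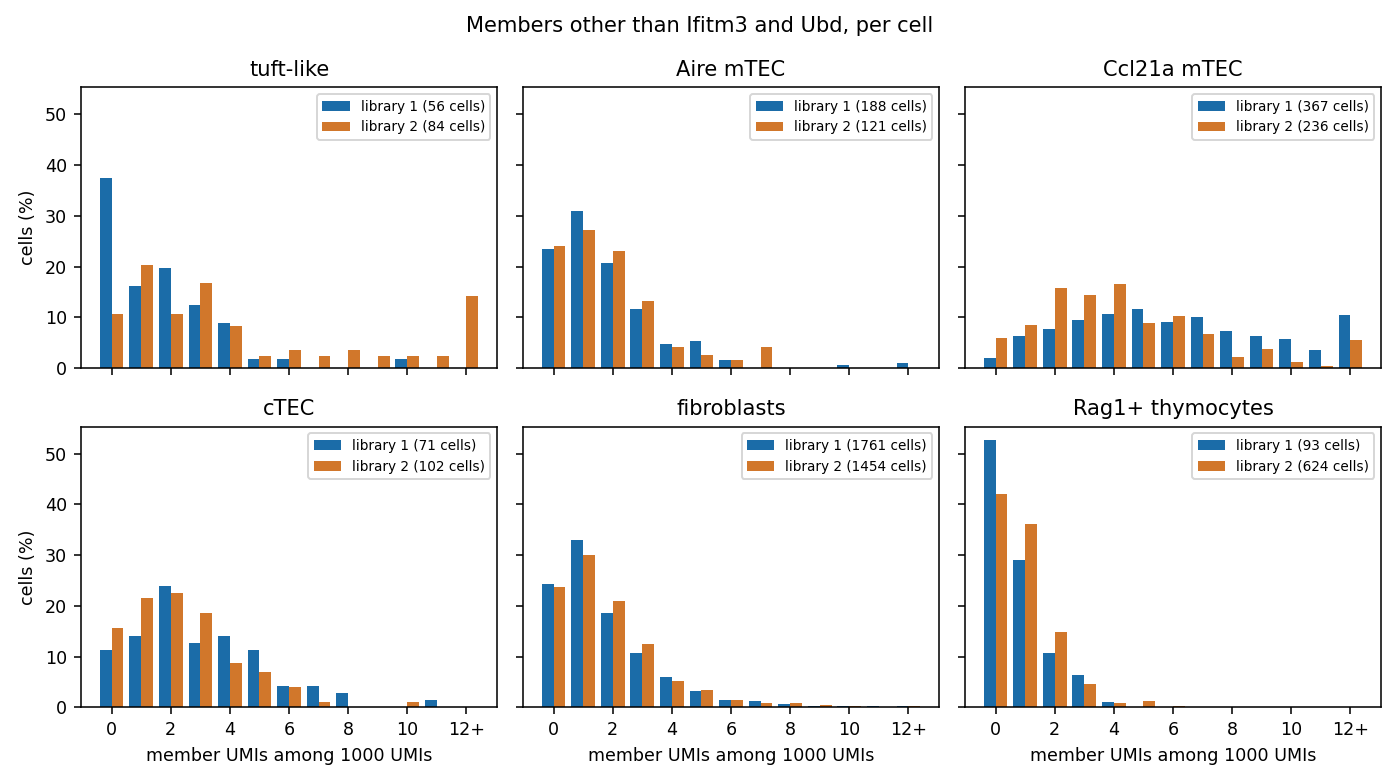
Share of cells (%) by the number of UMIs of the 36 members other than Ifitm3 and Ubd among 1000 UMIs per cell, with blue bars for library 1 and orange bars for library 2; the last bar holds 12 or more. Of the 6 classes drawn, Ccl21a mTEC have the most cells at 3 or more, 84.2% and 69.9%. In tuft-like cells of library 2 the last bar holds 14.3% of cells. It pools counts of up to 21, so it does not show a separate group.

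Some classes held single cells far above their own median. In Aire mTEC the median cell had 14.2 and 15.6 UMIs of the remaining members per 10000, and the highest cells had 320.0 and 97.9. The highest cell in library 1, with 950 such UMIs of 29686, held 1 UMI of Ifnl3. Without it the summed level fell to 1911 CPM, against 2164 CPM with it, still below the 6157 CPM of Ccl21a mTEC. The keratinocyte-like cell with 6 UMIs of Ifnl2 was also the highest of its class in library 1, at 299.9 per 10000 beside a class median of 19.0. In dividing epithelium of library 1, 1 cell of 53560 UMIs carried 1239 of them. Without it the level fell to 852 CPM, against 2021 CPM with it.

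Over cells of Aire mTEC in library 1, the 17 with a type I or type III ligand UMI had a median of 21.3 remaining-member UMIs per 10000, beside 13.7 in the other cells, at median depths of 18025 and 18605 UMIs. Other cells did not all show this order. In Aire mTEC of library 2 the 1 cell with a ligand UMI had 9.46, beside 15.7 in the other cells. Among epithelial cells of library 1 that met no state's gate, the 7 with a ligand UMI had a median of 31.1, beside 30.6 in the others. In fibroblasts, 4 such cells of library 1 had a median of 19.3, beside 13.7, and 1 of library 2 had 11.4, beside 14.5. The highest Ccl21a mTEC had 218 per 10000 beside a class median of 60.7 in library 1, and held no ligand UMI. Tuft-like cells of library 2 ran from a 10th percentile of 8.36 to a 90th percentile of 131 per 10000, while in library 1 these were 4.82 and 30.6. Fibroblast markers summed to 77.8 and 756 CPM in tuft-like cells, and their part in the difference between libraries was not tested.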

How the data were processed

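Droplet 3' single-cell libraries of thymic stroma from E2F_M11 mice were analysed as 2 replicates of 1 group. The deposited matrices hold UMI counts of genes in barcodes, without normalization by the authors. The submitters' processing notes list mm10 as build and Cell Ranger 7 and Seurat 4 as tools; the version in the matrices is Cell Ranger 6.0.0, per the file headers. How the authors filtered barcodes is not stated.

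Kept cells had 500 or more genes, 1000 or more UMIs and no more than 10% of UMIs from mitochondrial genes (3588 in library 1 and 8186 in library 2). Each was gated by marker genes: at least 3 markers of its lineage, then 2 or 3 markers of its state. Marker levels were first divided by a typical level for the lineage. In UMIs per 10000 it was 50 for epithelial, 250 for fibroblast, 70 for endothelial, 200 for B and 120 for thymocyte markers. The scaled level of the own lineage had to be at least 0.3, and at least 3 times that of any other lineage. Thresholds were set after the marker distributions were seen. No doublet caller was run. The gates compare epithelial, fibroblast, endothelial, B and thymocyte markers, and drop cells whose own scaled level is less than 3 times the next. Cells with smaller amounts of another lineage's markers remain. They also drop cells with at least 4 macrophage, 4 mural or 3 mesothelial markers. Neutrophil and dendritic markers were not used to drop cells, so mixtures of epithelium with myeloid cells may remain. Cells with a lineage but no state, and those of no lineage, entered no comparison.

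UMIs were summed per library and class (26 sums) and tested with edgeR 4.0.16 (R 4.3.3): quasi-likelihood, TMM scaling, library as a block, genes filtered by expression, 11987 genes, 12 residual degrees of freedom, and Benjamini-Hochberg adjustment over all genes. The block was used because each library supplies every class. DESeq2 1.42.0, RLE scaling, no low-count filter, no block, stricter and looser cell filters, a stricter gate and cells thinned to 1000 UMIs were the 8 alternatives, of which the looser cell filter was added after seeing the data. SEs were computed as the log2 fold over the square root of the F statistic. Python 3.11.15 was used for gating and levels.

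The members, marker lists and pathway lists were chosen with earlier results of these data known, and 2 of the 9 comparisons were added after the values had been seen. In each comparison the called members with the largest folds are named, up to 8 in a direction, with Isg15, Ifit3, Irf7, Stat2, Bst2, Ifitm3, Ubd and Gbp2 in every class. Other genes named were chosen after their values were seen. The values of 1 pathway gene are not reported here. Depth limits what library 2 can show per cell, with a median of 1874 UMIs per kept cell against 8727 in library 1.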

Additional observations from a re-analysis of the deposited data

Results flagged for a closer look

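Cells outside the gates, which enter no comparison, also carried the members. The 606 cells of library 1 outside the gates held 7006 CPM of them and the 3657 cells of library 2 held 4691 CPM, far above the 0.520 and 0.360 CPM that 3 counts make up there. Among these, cells with at least 4 macrophage markers (30 and 14 cells) had 8597 and 6507 CPM, cells with at least 4 mural markers (83 and 39 cells) 7087 and 6029 CPM, and cells with at least 3 mesothelial markers (98 and 34 cells) 8493 and 5177 CPM. Without Ifitm3 and Ubd, the cells with macrophage markers had 2790 and 1174 CPM, those with mural markers 3145 and 2591 CPM, and those with mesothelial markers 4150.1 and 2115 CPM. All of these values lie below those of Ccl21a mTEC in the same library.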

How the results depend on the processing

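Over the alternatives, the number of members called stayed within 1.5 times the reported one for Aire mTEC against Ccl21a mTEC, endothelium against fibroblasts and Ccl21a mTEC against fibroblasts. With cells thinned to 1000 UMIs, only 4233 genes and 26 members were tested. The calls then fell to 2 (7 reported) for Aire mTEC against cTEC, 4 (8 reported) for mimetic mTEC against Aire mTEC and 10 (17 reported) for epithelium against fibroblasts. They fell to 6 (10 reported) for mature and 0 (1 reported) for B-like cells against Rag1-positive thymocytes, and to 11 (17 reported) for Ccl21a mTEC against cTEC. Without the low-count filter the calls were 12 for Aire mTEC against cTEC, 26 for Ccl21a mTEC against cTEC and 3 for B-like cells, for which DESeq2 also gave 3. The cause of these shifts was not tested. Without the library as replicate block, Aire mTEC against Ccl21a mTEC had 24 calls in place of 25, Ccl21a mTEC against cTEC 14 in place of 17, and no count moved beyond 1.5 times. For the named genes, refits under the alternatives and folds within each library were counted together. Of these values, 604 stayed the same: a refit kept its direction and call, or a fold within a library stayed within the spread. In 44 refits the direction was kept without the call. Of the folds within a library, 33 moved by more than the spread, and 0 called values changed sign. No fit without a library was possible, since no residual degrees of freedom remain, so the folds within each library stand in for it. The B-like sum of library 1 without Ifitm3 and Ubd was 970 CPM when its highest cell was left out, beside 1793 CPM with it. Limits are the 2 libraries, the small mature, B-like and microfold-like classes, and the lower depth of library 2.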

Other observations

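Of all gated cells, 6 held at least 200 UMIs of the members other than Ifitm3 and Ubd per 10000 UMIs, and all 6 were in library 1. They were 2 Aire mTEC and 1 cell each of Ccl21a mTEC, dividing epithelium, keratinocyte-like and microfold-like mTEC. A type I or type III interferon UMI was found in 2 of them, the keratinocyte-like cell with 6 UMIs of Ifnl2 and 1 of the Aire mTEC with 1 UMI of Ifnl3. Ubd in these cells ran from 0.712 per 10000 UMIs in the Ccl21a mTEC cell to 108 per 10000 in the microfold-like cell.

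Among epithelial cells with a lineage but no state, 6 of 233 in library 1 and 1 of 315 in library 2 held a type III interferon UMI. Their median level of the members without Ifitm3 and Ubd, over all cells of that set, was 31.1 per 10000 UMIs in library 1 and 23.3 in library 2, between those of Aire mTEC and Ccl21a mTEC.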
